A study of Rattus norvegicus with 11 samples.

Results

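The B cells of blood are recognised by a small group of genes that other leukocytes hardly use, and 6 of these genes were followed here in peripheral white blood cells (WBCs) of rats with collagen-induced arthritis (CIA). The genes were Ms4a1, Cd79b, Cd22, Pax5, Blk and Bank1. They were found by their symbols, as 1 row each, among the 32623 genes of the deposited table. The rule that picks them uses their symbols and no measured value, although earlier results of these data were known when they were picked. CIA is a model of rheumatoid arthritis in which bovine type II collagen in incomplete Freund's adjuvant is injected.

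RNA-sequencing had been done on 11 samples from male Wistar rats that were 7 weeks old at the start. The Nampt++ group held 4 samples of CIA rats, taken at about day 8 when the study counted Nampt as highly expressed. The Nampt+ group held the samples of the same 4 rats at about day 14, when the study counted Nampt as back at the level of healthy controls, so status and day cannot be told apart. These rats had received a boost of the collagen emulsion on day 7. The 3 controls were healthy rats of that strain, and their sampling days are not given in the sources used here. All samples were WBCs left after lysis of red blood cells. The deposited extraction protocol names retinas instead, whereas the leukocyte gene Ptprc (CD45) lay between 122 and 280 FPKM in the 11 samples. Nothing in the labels gives a sort for B cells, so every value below is a level in mixed leukocytes, in which fewer B cells and less RNA per B cell cannot be told apart.

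B cells carry a membrane-bound antibody as their antigen receptor. The antibody chains are held by the pair Cd79a and Cd79b, whose tails are phosphorylated by kinases of the Src family, and adaptors and coreceptors tune the signal. The transcription factor Pax5 keeps the cells in the B lineage and is lost when they become plasma cells. In CIA and in rheumatoid arthritis, B cells are known as the source of antibodies against collagen and other joint antigens.

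The table held 65340027 to 85819418 counts per sample, and the 6 genes had between 1459 and 36160 counts in a sample. Counting error at the lowest count of a gene was 1.37% to 2.62%, far below the differences between rats, so the number of rats limited the precision. Haemoglobin transcripts took 6.84% to 42.8% of the counts despite the lysis. Levels are given as FPKM, the reads of a gene scaled by its length and by the reads of the sample, as deposited. Positions are those of the table, for which the genome build is not given in the sources used here.

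Cd79b (ENSRNOG00000011917, chr10:94497448-94500591, minus strand) encodes Ig-beta, a signalling chain of the B cell receptor. It was the most abundant of the 6, with a mean of 127.7 FPKM over the 11 samples, rank 577 of all genes. Its level was 130, 50.8 and 352 FPKM in controls 1 to 3, 102, 157, 88.8 and 105 FPKM in Nampt++ samples 1 to 4, and 158, 59.8, 105 and 95.4 FPKM in Nampt+ samples 1 to 4. Control 3 stood 2.23-fold above the next sample and control 2 was the lowest, so all 8 CIA samples lay inside the range of the 3 controls.

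Ms4a1 (ENSRNOG00000020945, chr1:227429596-227441442, minus strand) encodes CD20, the surface protein targeted by B cell depleting antibodies. It was measured at 48.3, 18.3 and 81.5 FPKM in controls 1 to 3. In Nampt++ samples 1 to 4 it was at 30.9, 36.1, 30.7 and 21.8 FPKM, and in Nampt+ samples 1 to 4 at 47.3, 20.4, 37.7 and 53.0 FPKM. As for Cd79b, controls 3 and 2 were the extremes and enclosed every CIA sample, while 3 of the 4 Nampt+ samples were above all 4 Nampt++ samples.

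Cd22 (ENSRNOG00000024000, chr1:89314558-89329418, minus strand) encodes a sialic acid binding inhibitor of the B cell receptor. Controls 1 to 3 were at 20.5, 10.8 and 34.3 FPKM, Nampt++ samples 1 to 4 at 19.0, 19.4, 17.0 and 21.1 FPKM, and Nampt+ samples 1 to 4 at 25.7, 10.5, 27.9 and 28.1 FPKM. Control 3 was again the highest, but here Nampt+ 2 was the lowest and control 2 next to it. The 4 Nampt++ samples were close together, and the Nampt+ samples lay on both sides of them.

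Pax5 (ENSRNOG00000024729, chr5:60007587-60191941, minus strand) encodes the transcription factor named above. It was at 23.3, 17.9 and 58.3 FPKM in controls 1 to 3, at 24.5, 24.0, 20.2 and 23.9 FPKM in Nampt++ samples 1 to 4, and at 27.3, 20.5, 28.2 and 23.4 FPKM in Nampt+ samples 1 to 4. Apart from control 3, which was 2.06-fold above the next, the samples differed little: the second highest was 1.58-fold above the lowest. The groups overlapped.

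Blk (ENSRNOG00000010798, chr15:46555188-46593653, minus strand) encodes a Src family kinase of the B lineage. It was at 11.04, 6.81 and 20.8 FPKM in controls 1 to 3. Nampt++ samples 1 to 4 had 8.89, 10.8, 8.96 and 8.29 FPKM, and Nampt+ samples 1 to 4 had 10.8, 7.22, 15.0 and 12.6 FPKM. Controls 3 and 2 were the extremes, and Nampt+ 3 and 4 were above every Nampt++ sample.

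Bank1 (ENSRNOG00000032247, chr2:241273763-241545250, minus strand) encodes a scaffold protein of B cells that binds Src family kinases. It was at 10.4, 5.43 and 24.8 FPKM in controls 1 to 3, at 10.4, 9.53, 8.76 and 8.31 FPKM in Nampt++ samples 1 to 4, and at 13.0, 6.44, 11.1 and 12.2 FPKM in Nampt+ samples 1 to 4. Control 3 was 1.91-fold above the next sample, control 2 was the lowest, and Nampt+ 2 came next to it.

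**Figure D1:**
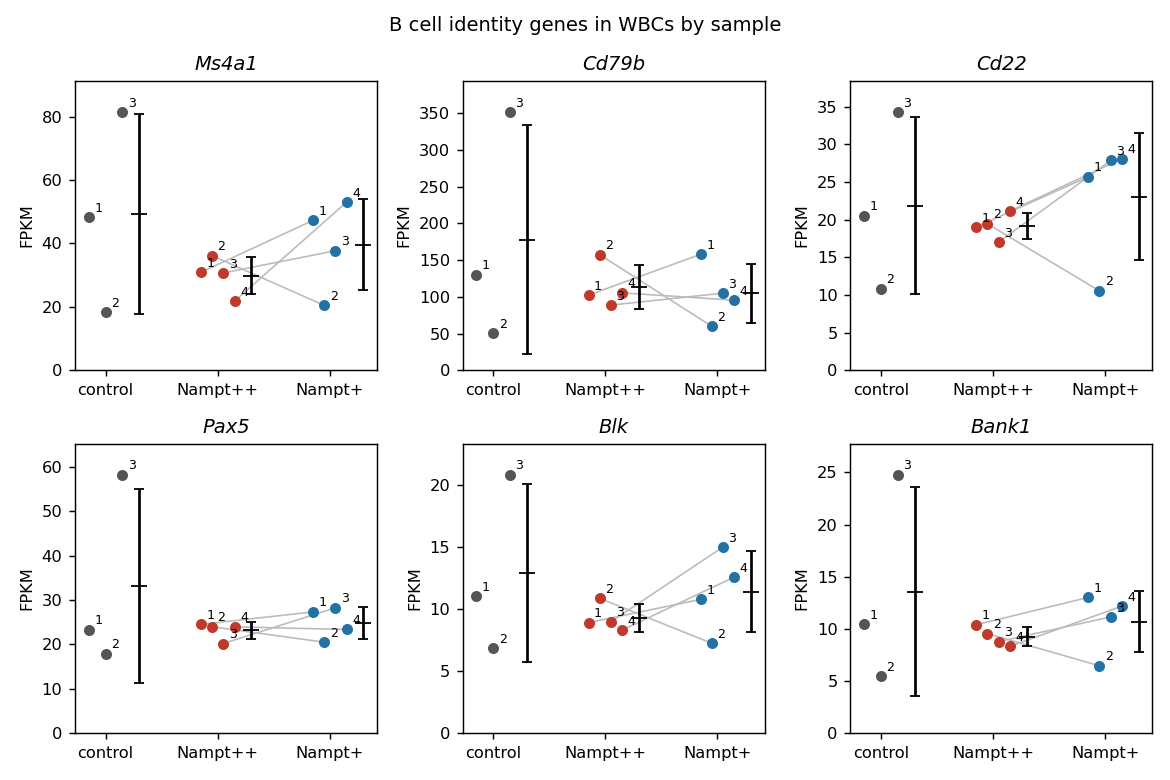
FPKM (vertical axes, from 0) of the 6 B cell identity genes in each of the 11 WBC samples, 1 panel a gene. Points are samples with their number, and grey lines join same-numbered CIA samples, taken as the same rat. The bars give the group mean and SD (n = 3 for controls, n = 4 for each CIA group). Control 3 is the highest point in all 6 panels, at 352 FPKM for Cd79b and 20.8 FPKM for Blk.

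By mean FPKM over the 11 samples, which compares genes per length, the order was Cd79b (127.7), Ms4a1 (38.7), Pax5 (26.5), Cd22 (21.3), Blk (11.02) and Bank1 (10.94). Cd79b was above Ms4a1 and Cd22 above Blk in 11 of 11 samples. Ms4a1 exceeded Pax5 in 9 of 11, and Pax5 exceeded Cd22 in 10 of 11. Blk and Bank1 could not be ranked against each other, with Blk the higher in 7 of 11 samples.

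Promoter sequences of RefSeq (assembly GRCr8) were at hand for Bank1 and Cd22, 2 of the 6 genes. Whether these sequences have a part in the levels was not tested. Each runs from 160 to 41 bases before the annotated start of the gene, 5′ to 3′ on the gene's strand, at chr2:227473756-227473875 (minus strand) for Bank1 and chr1:95259771-95259890 (minus strand) for Cd22. Capitals mark the letters CCCNNGGG, the core bound by the B cell factor EBF1, and GGAAGT, a core of ETS factors.
Bank1: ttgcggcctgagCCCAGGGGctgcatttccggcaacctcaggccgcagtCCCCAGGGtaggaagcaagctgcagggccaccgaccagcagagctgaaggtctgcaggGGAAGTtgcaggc
Cd22: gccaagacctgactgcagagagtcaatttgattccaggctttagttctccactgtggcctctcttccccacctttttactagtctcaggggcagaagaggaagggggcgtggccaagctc
The motifs CCCNNGGG, ATTTGCAT (the octamer of Oct factors) and GGAAGT were searched on both strands. In the Bank1 window CCCNNGGG began at 148 and 111 bases before the start and GGAAGT at 53 bases before it. None of the 3 was in the Cd22 window. Of all 33469 promoter windows of the same 120 bases, 5.74% held CCCNNGGG, 0.765% the octamer and 9.95% GGAAGT, and such matches are a description of letters only.

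Levels of the 6 genes moved together mainly in the samples at the extremes. The plot of levels around each gene's median shows control 3 at the top for all 6, where the 6 genes were on average 1.15 log2 units above their medians, and control 2 and Nampt+ 2 at the bottom, at -0.78 and -0.64. The remaining 8 samples had averages between -0.24 and 0.29, and among them the genes did not always move alike. Nampt+ 4 had rank 2 of the 11 samples for Ms4a1 and Cd22, but rank 8 for Cd79b and rank 7 for Pax5. Between the highest and lowest sample the level differed 6.93-fold for Cd79b, 4.56-fold for Bank1, 4.46-fold for Ms4a1, 3.26-fold for Pax5, 3.26-fold for Cd22 and 3.06-fold for Blk. Control 3 exceeded control 2 by 3.06-fold to 6.93-fold, so the widest difference lay within the healthy rats for 5 of the 6 genes, and between control 3 and Nampt+ 2 for Cd22.

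**Figure D2:**
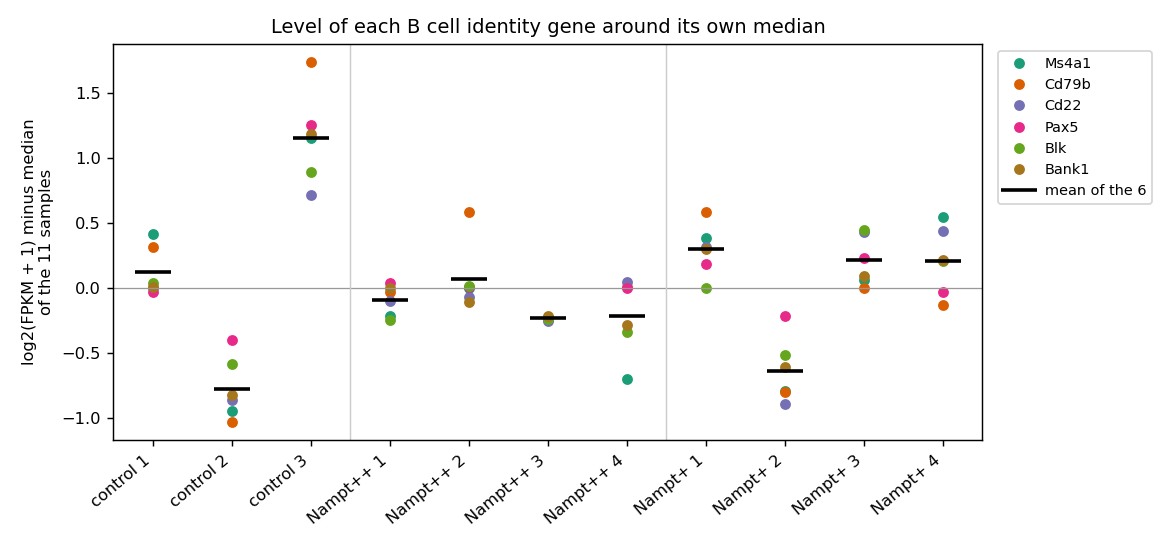
log2(FPKM + 1) of each gene minus its median over the 11 samples (vertical axis, log2 units) for the 11 samples (horizontal axis). Points are the 6 genes and black lines their mean, with grey lines between the groups; the mean is highest in control 3 (1.15) and lowest in control 2 (-0.78).

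Other cells varied with these levels. The 12 T cell genes, all of them past the filter in every comparison, summed to 590, 1478 and 1349 FPKM in controls 2, 3 and 1, and the lowest T cell sum of all samples was that of Nampt+ 2, at 439 FPKM. Thus the samples lowest for the B cell genes, control 2 and Nampt+ 2, were also the lowest for T cell genes. The summed FPKM of the 6 B cell genes divided by that of the T cell genes was 0.387 in control 3, and between 0.164 and 0.284 in the other 10 samples. On this ratio control 2 (0.187) was not low and Nampt+ 2 (0.284) was the second highest, whereas control 3 remained the highest. Cd79b gave 352 of the 572 FPKM summed in control 3, so this ratio follows Cd79b most. Gene by gene, control 3 was not the highest on this ratio for all 6. Pax5 was at 20.5 FPKM in Nampt+ 2 and 58.3 FPKM in control 3, beside T cell sums of 439 and 1478 FPKM. Its ratio was thus higher in Nampt+ 2, as were those of Cd22 and Blk. For Ms4a1, Cd79b and Bank1 the ratio was higher in control 3 than in Nampt+ 2. The neutrophil list, with 10 of 10 genes found, had its lowest sum in control 3 at 2047 FPKM, within ranges of 2047 to 13883 FPKM in controls, 2845 to 39871 FPKM in Nampt++ and 3634 to 15405 FPKM in Nampt+ samples. Control 2 and Nampt+ 2 had the highest neutrophil sums in their groups, at 13883 and 15405 FPKM. These sums follow S100a8 and S100a9 most, which were at 4321 and 10491 FPKM in Nampt+ 2. Both genes, with Mmp9, Camp, Ngp and Lcn2, were highest in Nampt+ 2 among the Nampt+ samples. Csf3r and Cxcr2 were instead highest in Nampt+ 4, at 283 and 137 FPKM, against 178 and 74.5 FPKM in Nampt+ 2. Haemoglobin took 16.2% of the counts in control 3, 30.9% in control 2 and 42.8% in Nampt+ 2. The part of these cells and of haemoglobin in the B cell levels was not tested. As a share of the counts outside the haemoglobin genes, control 3 was still the highest for all 6 genes, by 1.19-fold (Cd22) to 1.85-fold (Pax5) over the next sample, while the lowest sample was control 2 for 3 genes, Nampt++ 4 for Ms4a1 and Blk and Nampt++ 3 for Pax5.

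**Figure D3:**
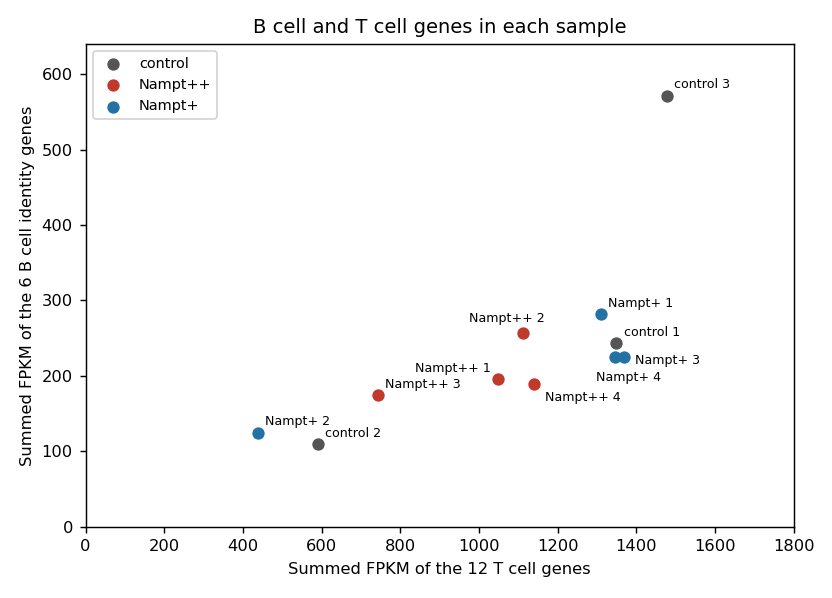
Summed FPKM of the 6 B cell identity genes (vertical axis) against summed FPKM of the 12 T cell genes (horizontal axis), 1 point a sample, coloured by group. Nampt+ 2 and control 2 lie at the lower left, at 125 and 110 FPKM of B cell genes, and control 3 lies alone at the top, at 572 FPKM.

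The comparison of Nampt+ with Nampt++ samples asked whether the B cell genes differed between the later and the earlier sampling of the same rats. None of the 6 was called, that is past a 2-fold ratio of group means with an unadjusted p under 0.05, against 0.642% of all 11219 genes tested. The estimates were nevertheless above 0 for 5 of the 6 genes and the median of the 6 was 0.25 on the log2 scale, beside -0.0002 for all genes tested. The group means of Ms4a1 were 39.6 ± 14.3 (SD, n = 4) FPKM in Nampt+ and 29.9 ± 5.95 (SD, n = 4) FPKM in Nampt++ samples, a log2 fold change of 0.39 ± 0.25 (SE). Cd79b was the exception, at 105 ± 40.6 against 113 ± 30.1 FPKM (SD, n = 4 each) and a log2 fold change of -0.10 ± 0.29 (SE).

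For the remaining genes, the log2 fold changes between Nampt+ and Nampt++ samples were 0.26 ± 0.16 (SE) for Cd22, 0.21 ± 0.20 for Pax5, 0.32 ± 0.19 for Blk and 0.24 ± 0.17 for Bank1. By edgeR's quasi-likelihood test the unadjusted p of the 6 genes ranged from 0.128 to 0.729, and the Benjamini-Hochberg adjusted p was 0.9996 for each. This fit and its SEs did not use the pairing of samples by rat. An unadjusted p under 0.05 was reached by 0 of the 6 genes and by 2.28% of all genes, and limma and DESeq2 called none of the 6 either. The 95% intervals reach from -0.17 to 0.95 for Ms4a1 and from -0.77 to 0.56 for Cd79b, but with the rat as a replicate block that of Ms4a1 reached from -0.29 to 1.15, so that a 2-fold higher level was not outside it. With that block, edgeR's quasi-likelihood test gave unadjusted p values from 0.0932 (Blk) to 0.789 (Cd79b), with an adjusted p of 0.9999 for each. Of the 6 genes 0 had groups that did not overlap, against 0.41% of all genes.

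Within the rats, with same-numbered samples taken as the same rat, directions differed. In rat 2 all 6 genes were lower at Nampt+ than at Nampt++ status, with log2 ratios of FPKM from -1.40 (Cd79b) to -0.23 (Pax5). In rats 1 and 3 all 6 were higher, by 0.16 (Pax5) to 0.63 (Cd79b) in rat 1 and by 0.24 (Cd79b) to 0.74 (Blk) in rat 3. Rat 4 was mixed: Ms4a1 had a log2 ratio of 1.28, Blk 0.60, Bank1 0.55 and Cd22 0.41, but Pax5 -0.03 and Cd79b -0.14. The share of haemoglobin in rat 2 was 37.3% at Nampt++ and 42.8% at Nampt+ status, and its summed T cell genes were at 1112 and 439 FPKM. Without sample 2 of the Nampt++ group the estimate of Cd79b turned to 0.21, and by edgeR's quasi-likelihood test Blk (log2 fold change 0.50, unadjusted p 0.0163) and Ms4a1 (0.59, unadjusted p 0.0368) fell under an unadjusted p of 0.05, each with an adjusted p of 0.918. Without sample 2 of the Nampt+ group the same edgeR test gave Cd22 an unadjusted p of 0.0408 (log2 fold change 0.35, adjusted p 0.7198), and none of these passed the fold threshold.

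In the comparison of Nampt++ samples with controls, the estimates of all 6 genes were below 0, with a median of -0.43 on the log2 scale beside 0.0018 for all genes. None was called, against 0.686% of the 11219 genes tested, and 0 of 6 had groups without overlap, against 1.1% of all genes. The means were 29.9 ± 5.95 (SD, n = 4) and 49.3 ± 31.6 (SD, n = 3) FPKM for Ms4a1, with a log2 fold change of -0.59 ± 0.37 (SE). The other estimates were -0.47 ± 0.48 (SE) for Cd79b, -0.43 ± 0.27 for Pax5, -0.43 ± 0.34 for Bank1, -0.39 ± 0.27 for Blk and -0.12 ± 0.24 for Cd22. Unadjusted p values by edgeR's quasi-likelihood test were 0.152 to 0.631 and the adjusted p was 0.9999 for each. The share of all genes with an unadjusted p under 0.05 was 1.57%, and it was reached by 0 of the 6, also by limma and DESeq2. The 95% intervals reached from -1.46 to 0.27 for Ms4a1 and from -1.58 to 0.65 for Cd79b, so that a level 2-fold lower lay within them.

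These estimates rested on which controls were used. Without control 2, Ms4a1 passed both thresholds, with a log2 fold change of -0.90 and an unadjusted p of 0.0236 by edgeR's quasi-likelihood test, but an adjusted p of 0.546, and Bank1 had an unadjusted p of 0.0442 (-0.71) short of the fold threshold. Without control 3, the estimates of Cd79b, Cd22 and Bank1 turned to 0.21, 0.13 and 0.07. The spread itself differed between groups: the SD of Cd79b was 156 FPKM in controls and 30.1 FPKM in Nampt++ samples, and that of Cd22 was 11.8 and 1.70 FPKM. This difference in spread was not tested.

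In the comparison of Nampt+ samples with the same 3 controls, the estimates were below 0 for 5 of the 6 genes, with a median of -0.21 beside -0.0027 for all genes. Again 0 of 6 genes were called, against 0.497% of the 11269 genes tested, and 0 of 6 had groups without overlap, against 0.444%. Cd79b had 105 ± 40.6 (SD, n = 4) and 178 ± 156 (SD, n = 3) FPKM and a log2 fold change of -0.58 ± 0.46 (SE). The others were at -0.21 ± 0.33 (SE) for Ms4a1, -0.24 ± 0.31 for Pax5, -0.20 ± 0.33 for Bank1, -0.08 ± 0.23 for Blk and 0.13 ± 0.25 for Cd22. Unadjusted p values by edgeR's quasi-likelihood test ran from 0.241 to 0.748, the adjusted p was 1 for each, and none of the 6 fell under 0.05, also by limma and DESeq2, against 0.87% of all genes.

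Here too, the signs depended on 2 of the controls. Without control 2, Cd79b passed both thresholds with a log2 fold change of -0.95 and an unadjusted p of 0.0372 by edgeR's quasi-likelihood test (adjusted p 0.988), and Cd22 turned to -0.09. Without control 3, Ms4a1, Cd79b, Pax5, Blk and Bank1 turned to 0.12, 0.11, 0.17, 0.21 and 0.31. The comparisons of either CIA group with controls share these 3 samples, so their directions are not independent of each other.

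**Figure D4:**
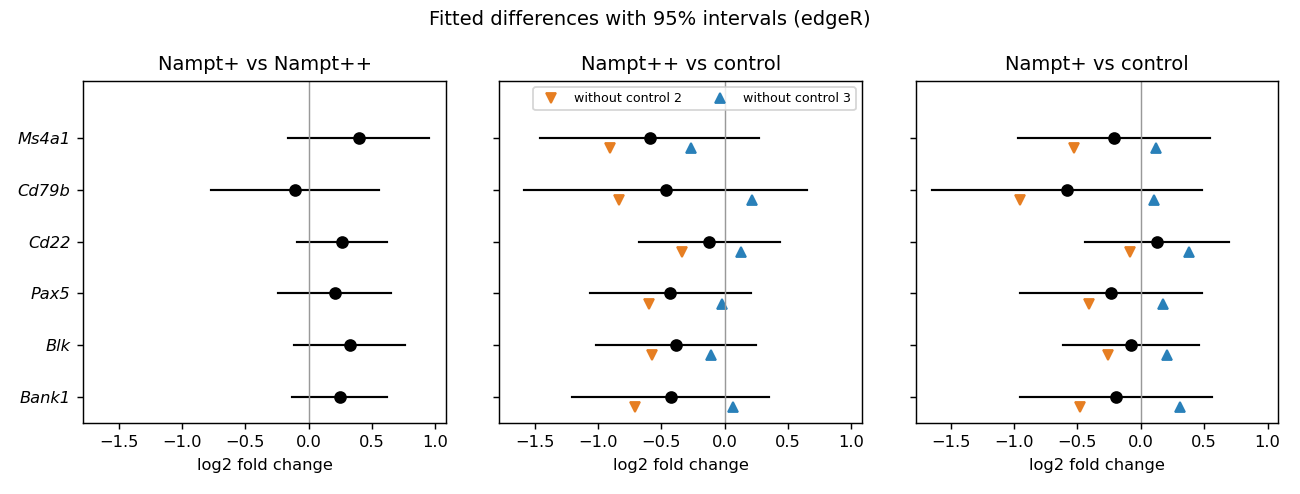
log2 fold changes (horizontal axes) of the 6 genes in the 3 comparisons, with black points for the edgeR estimates and black lines for their 95% intervals. Orange and blue triangles give the estimates without control 2 and without control 3; every black line crosses 0, and for Cd79b in Nampt+ samples against controls the triangles stand at -0.95 and 0.11.

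The 6 genes kept their ratios to each other to different degrees. As a measure of likeness, the SD over the 11 samples of the log2 ratio of a gene to the mean of the 6 was taken. A pseudocount of 1 was added to each FPKM, so the scaling of a sample cancels only in part, least for genes of low level. Bank1 followed the mean most closely (0.081 log2 units), then Blk (0.17), Pax5 (0.21), Cd22 (0.21) and Ms4a1 (0.23), and Cd79b least (0.31). The mean contains the gene itself, so these values are small partly by construction. Among pairs, Pax5 and Bank1 (0.21) and Blk and Bank1 (0.21) were steadiest, and Cd79b against Cd22 or Blk (0.45 each) the least steady. The ratio of Ms4a1 to Cd79b, both surface proteins of B cells, was between 0.207 in Nampt++ 4 and 0.556 in Nampt+ 4, that is at its lowest and its highest in the same rat. In the other rats the ratio was 0.302 at Nampt++ and 0.299 at Nampt+ status (rat 1), 0.230 and 0.342 (rat 2), and 0.346 and 0.359 (rat 3), and in controls 1 to 3 it was 0.370, 0.360 and 0.232.

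Outside the 6, 8 of the 10 genes nearest to them by this measure among 11236 genes were Gga2 (SD 0.11), Vav2 (0.12), Zfp637 (0.13), Eif2ak3 (0.14), Strbp (0.15), Klhl14 (0.15), Polm (0.15) and Ighm (0.15), where the median of all genes was 0.46. Ighm encodes the heavy chain of IgM, while Vav2 is a guanine nucleotide exchange factor. Gga2 encodes an adaptor of Golgi sorting, Eif2ak3 the stress kinase PERK and Polm a DNA polymerase of end joining. Ighm was at 261, 123 and 515 FPKM in controls 1 to 3, at 244, 271, 189 and 207 FPKM in Nampt++ samples 1 to 4, and at 261, 154, 308 and 215 FPKM in Nampt+ samples 1 to 4. Control 3 and control 2 were its extremes, as for 5 of the 6 genes, and the groups overlapped. The 10 genes were picked for this likeness, so it is a description over 11 samples that share libraries, and 4 of the 10 were still among the nearest when a mean FPKM of at least 10 was asked.

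**Figure D5:**
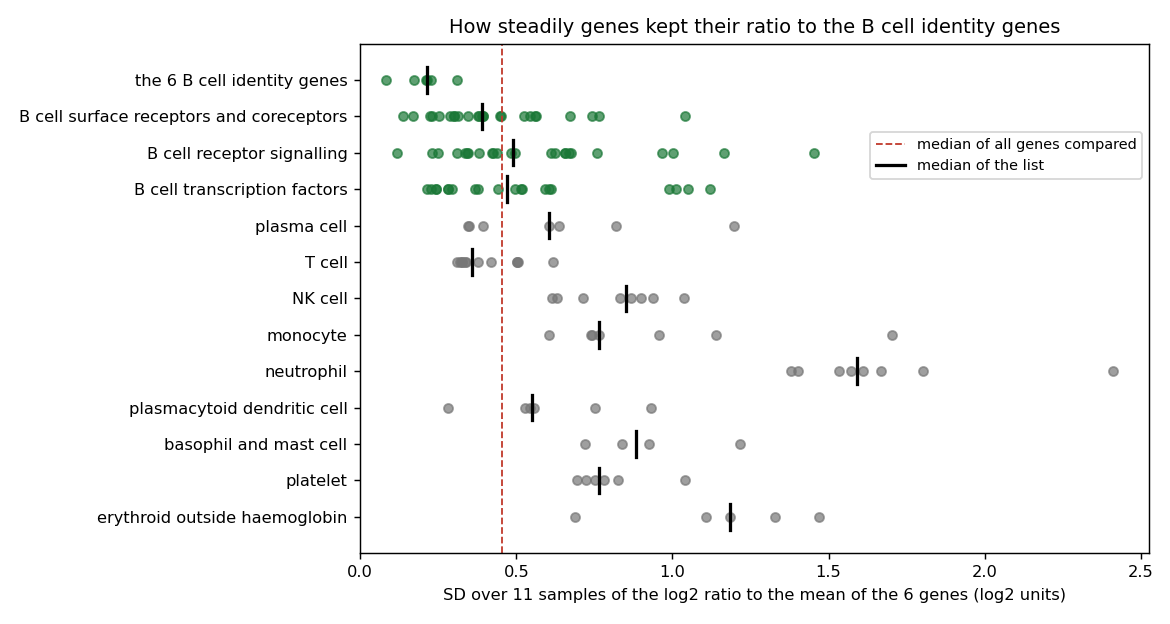
SD over the 11 samples of the log2 ratio of a gene to the mean of the 6 B cell identity genes (horizontal axis, log2 units) for the genes of each list (rows). Points are genes, green for B cell lists and grey for other cells, black bars the list medians and the red dashed line the median of all genes compared (0.46); the neutrophil list stands farthest to the right, with a median of 1.59.

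The partner of Cd79b, Cd79a, was not found by symbol. The table describes 2 rows as Cd79a, AABR07002700 (ENSRNOG00000020125, chr1:81763614-81767980, plus strand) and Cd79al (ENSRNOG00000049925, chr9:16793928-16795887, minus strand). They were looked up after values were seen, and reads may be divided between these near-identical rows. Summed over both, the level was 542, 314 and 1336 FPKM in controls 1 to 3, 562, 679, 559 and 492 FPKM in Nampt++ samples 1 to 4, and 611, 375, 756 and 466 FPKM in Nampt+ samples 1 to 4. Control 3 was the highest and control 2 the lowest, as for Cd79b, and the groups overlapped.

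Of other B cell surface receptors and coreceptors, 25 of 26 listed genes were tested and 0 were called in any of the 3 comparisons. Their median log2 fold changes were 0.18 for Nampt+ against Nampt++ samples, -0.16 for Nampt++ samples against controls and -0.09 for Nampt+ samples against controls. The most abundant were Cd74, the invariant chain of MHC class II, and the chemokine receptor Ccr7. Cd74 had its highest level in control 3, at 5616 FPKM. Without passing the fold threshold, Cd38 (log2 fold change 0.50) and Fcrl1 (0.49) had an unadjusted p under 0.05 by edgeR's quasi-likelihood test in Nampt+ against Nampt++ samples, and Cd24 (-0.97) and Cd72 (-0.58) in Nampt++ samples against controls.

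In the pathway below the receptor, 24 of 25 listed genes were tested, with medians of 0.04, 0.04 and 0.03 in the same order. Ptprc (CD45) and Pik3cd, the PI3-kinase subunit p110-delta, were the most abundant, and neither was called. Syk, the kinase recruited to phosphorylated Cd79a and Cd79b and also used in myeloid cells and platelets, was the only gene of this list that was called. It was at 43.8, 41.5 and 16.6 FPKM in controls 1 to 3, at 19.6, 39.7, 50.8 and 49.4 FPKM in Nampt++ samples 1 to 4, and at 10.4, 6.38, 15.0 and 18.6 FPKM in Nampt+ samples 1 to 4. All 4 Nampt+ samples were below all 4 Nampt++ samples, and control 3, in which the 6 B cell identity genes were highest, had the lowest Syk level of the controls. Syk was lower in Nampt+ than in Nampt++ samples by a log2 fold change of -1.67 ± 0.33 (SE), with an unadjusted p of 0.00066 by edgeR's quasi-likelihood test and an adjusted p of 0.9996. It was also lower in Nampt+ samples than in controls (-1.58 ± 0.43, unadjusted p 0.00667, adjusted p 1, edgeR's quasi-likelihood test), where Nampt+ 4 overlapped control 3. Stap1 (0.43) and Swap70 (0.42) had an unadjusted p under 0.05 by the same edgeR test in Nampt+ against Nampt++ samples without passing the fold threshold.

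All 20 listed B cell transcription factors were tested and 0 were called in any comparison, with medians of 0.04, -0.11 and -0.03. Klf2, which governs lymphocyte traffic, and Spi1 (PU.1), which myeloid cells share, were the most abundant. Ebf1, which acts beside Pax5 in the early B lineage, was at rank 120 in likeness to the 6 genes, with an SD of 0.21, and Pou2af1, the coactivator of octamer factors, at rank 174 with an SD of 0.23. Bcl11a had a log2 fold change of -0.96 in Nampt++ samples against controls and an unadjusted p under 0.05 by edgeR's quasi-likelihood test, with a ratio of means of 0.502, just short of the fold threshold. The median SD to the 6 genes was 0.39 for the surface receptors, 0.49 for receptor signalling and 0.47 for transcription factors, against 0.46 for all genes.

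Genes of plasma cells, which have lost Pax5, had medians of -0.09, 0.12 and 0.09 over 7 tested genes, led by Jchain and Xbp1, with 0 called. T cell genes, led by Cd3g and Cd3d, had medians of 0.24, -0.14 and -0.03 over 12 genes, with 0 called, and a median SD to the 6 genes of 0.36. The NK cell list (8 genes, led by Gzmm and Nkg7) had medians of 0.10, -0.68 and -0.65, and 0 were called. Monocyte genes (7, led by Lyz2 and Cd14) had medians of -0.49, 0.38 and -0.11, and neutrophil genes (8 tested, led by S100a9 and S100a8) had -0.41, 0.71 and 0.41, with 0 called in either list. In the comparisons between Nampt+ and Nampt++ samples and between Nampt++ samples and controls, these 2 lists thus had medians of the opposite sign to that of the 6 B cell genes, and their part in the B cell values was not tested.

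Of the smaller lists, the plasmacytoid dendritic cell genes (6, led by Irf7 and Bst2) had medians of -0.06, -0.09 and -0.24, and 0 were called. Basophil and mast cell genes, led by Hdc and Gata2, had medians of 1.34 (4 genes tested), -0.36 (3 genes) and 0.95 (4 genes), and Ms4a2, the beta chain of the IgE receptor, was called higher in Nampt+ than in Nampt++ samples with a log2 fold change of 1.94, an unadjusted p of 0.0114 (adjusted p 0.9996, edgeR's quasi-likelihood test) and groups that overlapped. Platelet genes (6, led by Pf4 and Gp1bb) had medians of 0.13, 0.19 and 0.27, and Ppbp was called lower in Nampt++ samples than in controls, with a log2 fold change of -1.09 and an unadjusted p of 0.0283 (adjusted p 0.9999, edgeR's quasi-likelihood test). The groups overlapped for Ppbp, and the call was lost in 7 of 16 alternatives, among them without control 2 (-1.11), control 3 (-0.83), Nampt++ 1 (-0.95), Nampt++ 3 (-0.95) or Nampt++ 4 (-0.99). Erythroid genes outside haemoglobin (5, led by Alas2 and Ahsp) had medians of 0.76, -0.55 and 0.16, with 0 called.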

How the data were processed

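Poly(A) RNA of 11 WBC samples had been sequenced. The submitters' processing notes name cutadapt 1.9, HISAT2 2.0.4 and StringTie 1.3.4, and the genome build and the counting are not given in the sources used here. The authors deposited 1 table with raw counts per gene, which are whole numbers without normalization, and FPKM values, in which 0.0001 stands for 0. The members and lists were chosen with earlier results of these data known.

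Counts were compared with edgeR 4.0.16 (R 4.3.3), TMM normalization and the quasi-likelihood test, for 2 groups at a time and keeping genes whose FPKM averaged 1 or more in those samples. Called genes had an unadjusted p under 0.05 and group mean FPKMs more than 2-fold apart (a ratio above 2 or below 0.5), the thresholds of the study, and adjusted p values are by Benjamini-Hochberg over all genes. limma 3.58.1 and DESeq2 1.42.0 were alternatives. The scripts were tested on simulated data.

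Named genes were the 6 members, the called genes and the 2 most abundant genes of each list, and the 10 genes nearest in pattern; others were chosen after their values were seen. By the study's account the Nampt++ and Nampt+ samples come from the same CIA rats. Same-numbered samples were taken as the same rat from their labels, which the study does not state. Across 11242 genes these paired samples departed from their group averages with correlations of -0.27, -0.24, 0.23 and 0.09. Controls share only numbers. Replicates differed by more than counting error (smallest chi-square per degree of freedom 270.7). Of the listed genes, Cd79a, Derl3, Ccr2 and Mcpt8 were not found by symbol and were not used here. Some genes are not reported here.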

Additional observations from a re-analysis of the deposited data

Results flagged for a closer look

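For the 6 genes, their sum, the ratio of Ms4a1 to Cd79b and the ratio to the T cell genes, the highest and the lowest sample of each CIA group of 4 were tested for standing apart by Dixon's criterion, in 18 groups, of which chance alone flags about 1 in 20. There were 2 flags. Cd22 in Nampt+ 2 was at 10.5 FPKM, with a gap to the next sample of 0.863 of the range of its group. Pax5 in Nampt++ 3 was at 20.2 FPKM, with a gap of 0.870 of the range, in a group whose highest level was only 24.5 FPKM. The 3 controls were too few for this criterion.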

How the results depend on the processing

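Under upper quartile normalization, DESeq2, limma with a pseudocount of 1 or 0.1, no filter, a mean FPKM of at least 10, haemoglobin genes left out, all groups in one fit and the replicate block, the estimates of the 6 genes kept their direction and stayed short of the thresholds in 161 of 161 settings (Bank1 did not reach the filter of 10 in Nampt+ against Nampt++ samples). Leaving out 1 sample changed the call in 2 of 132 settings and the sign in 10. The estimates that changed sign or call then ranged, for Nampt+ against Nampt++ samples, from -0.32 to 0.21 for Cd79b, for Nampt++ samples against controls from -0.90 to -0.26 for Ms4a1, -0.84 to 0.21 for Cd79b, -0.33 to 0.13 for Cd22 and -0.71 to 0.068 for Bank1, and for Nampt+ samples against controls from -0.52 to 0.12 for Ms4a1, -0.95 to 0.11 for Cd79b, -0.086 to 0.38 for Cd22, -0.42 to 0.17 for Pax5, -0.26 to 0.21 for Blk and -0.48 to 0.31 for Bank1. The others ranged, for Nampt+ against Nampt++ samples, from 0.20 to 0.59 for Ms4a1, 0.21 to 0.35 for Cd22, 0.03 to 0.31 for Pax5, 0.19 to 0.50 for Blk and 0.12 to 0.34 for Bank1, and for Nampt++ samples against controls from -0.60 to -0.02 for Pax5 and -0.57 to -0.10 for Blk. The number of the 6 genes called was 0 to 0, 0 to 1 and 0 to 1 in the 3 comparisons.

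The counts of all genes called, 72, 77 and 56, moved more. They were 295, 306 and 261 without a filter and 19, 25 and 14 at a mean FPKM of at least 10, where more or fewer genes were tested. For Nampt++ samples against controls they were 121 with DESeq2 and 145 and 140 with limma at pseudocounts of 1 and 0.1, and the cause was not tested. With the rat as a replicate block, Nampt+ against Nampt++ samples gave 56 called genes and none of the 6. With shared numbers only as the block, the comparisons with controls gave 46 (Nampt++) and 60 (Nampt+). Leaving out 1 sample gave 58 to 165, 53 to 462 and 49 to 136 called genes. The samples that moved a count by over 1.5 times were Nampt++ 2 (163) and Nampt+ 2 (165) in the first comparison, control 2 (462), control 3 (142) and Nampt++ 2 (184) in the second, and control 2 (136), control 3 (112) and Nampt+ 1 (98) in the third. With all samples, adjusted p values under 0.05 were reached by 0 genes in each comparison with the main edgeR fit, and by 5, 5 and 4 genes with DESeq2. limma with a pseudocount of 0.1 gave 1 such gene for Nampt+ samples against controls. With 1 sample left out, edgeR gave at most 2 such genes. These were found without Nampt+ 2 in the first comparison and without control 1 in the second.

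Syk was called in 17 of 17 alternatives for Nampt+ against Nampt++ samples and in 16 of 16 for Nampt+ samples against controls. Ppbp was called in 9 of 16. Ms4a2 was called in the 15 alternatives in which it was tested. At a mean FPKM of at least 10, and without Nampt+ 4, Ms4a2 did not reach the filter. Its levels were low, at 0.26 to 0.91 FPKM in Nampt++ and 0.42 to 5.12 FPKM in Nampt+ samples. Of the 10 genes nearest in pattern, 4 were shared at a mean FPKM of at least 10 and 7 with a pseudocount of 0.1. Chosen after seeing the data, the ratio to the T cell genes lowered the range of the summed 6 genes over samples to 2.35-fold.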
